A study of Mus musculus with 4 samples.

Results

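The CXXC genes described here encode proteins that bind unmethylated CpG dinucleotides through a zinc-coordinating CXXC domain. They were chosen by symbol and comprise Cxxc1, Kmt2a, Kmt2b, Kdm2a, Kdm2b, Fbxl19, Tet1, Tet3, Cxxc4 and Cxxc5, which are 10 of the 41543 gene symbols counted. All 10 were found, and 9 were expressed highly enough to be tested among 16112 genes. Cxxc4 was the exception. Messenger RNA was sequenced from E14TG2a, a line of embryonic stem (ES) cells from the mouse, kept in serum with the cytokine LIF on gelatin-coated plates. Control cells (genotype Control, 2 libraries) were compared with cells labelled KAT6A KO (2 libraries), made by CRISPR/Cas9 editing per the labels and called KO here after that label alone. KAT6A is a histone acetyltransferase, and the title of the series concerns its recruitment to unmethylated CpG islands through a winged helix domain. Whether replicates are separate cultures, and whether the KO cells are 1 clone, is not stated in the labels, so the p-values reflect the spread among 4 libraries, which may be technical.

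CpG islands are stretches rich in CpG dinucleotides that mostly stay unmethylated and surround many gene starts. CXXC proteins bring chromatin enzymes to them. CFP1 (from Cxxc1) guides the SET1 complex, and KMT2A and KMT2B (also called MLL1 and MLL2) place methyl groups on lysine 4 of histone H3, a mark of active and poised promoters. KDM2A and KDM2B remove methyl groups from lysine 36 of histone H3, and KDM2B also brings the variant Polycomb complex PRC1.1. FBXL19 is a related F-box protein linked to the CDK8 module of Mediator. TET1 and TET3 oxidise 5-methylcytosine. The small proteins IDAX (Cxxc4) and CXXC5 bind Dishevelled and restrain WNT signalling.

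Because these proteins read CpG dinucleotides, their own promoters are shown for the CpGs they hold. RefSeq promoter windows (GRCm38.p6, 250 bases before to 50 after the start) were found for 6 of the 10 genes, 10 windows in all. These were Cxxc4, Fbxl19, Kdm2b, Kmt2a, Tet1 and Tet3. Cxxc1, Cxxc5, Kdm2a and Kmt2b had no entry. The motif searched was CG, which reads the same on both strands. The windows held 14 to 49 CpGs with a median of 24, against a median of 7 and quartiles of 3 and 20 over all 32851 windows of that length, 94.6% of which hold at least 1 CpG. The lowest count belonged to a Fbxl19 window and the highest to a Kdm2b window inside the gene, at an alternative start. The Tet1 window held 17 and the Tet3 window 22, and both also lie inside their genes, past the outermost annotated start. The Kdm2b windows with 49 and 47 CpGs overlap each other, and the others of that gene held 18 and 28. The sequences printed are upstream bases that lie in no GENCODE exon. One pair is for the TET genes, whose RNA levels stood on opposite sides of the controls in the KO libraries. The other is for Kdm2b, from the window with 47 CpGs. No printed stretch is at the outermost annotated start of its gene. Capitals mark CpGs. They lie at chr10:62887325-62887412 (minus strand, 6 CpGs in 88 bases), chr6:83441679-83441754 (minus strand, 9 in 76 bases) and chr5:122900368-122900617 (minus strand, 36 in 250 bases).
Tet1: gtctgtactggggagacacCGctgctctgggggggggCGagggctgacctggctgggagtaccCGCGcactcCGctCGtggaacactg
Tet3: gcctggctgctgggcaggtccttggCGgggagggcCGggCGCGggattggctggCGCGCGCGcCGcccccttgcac
Kdm2b: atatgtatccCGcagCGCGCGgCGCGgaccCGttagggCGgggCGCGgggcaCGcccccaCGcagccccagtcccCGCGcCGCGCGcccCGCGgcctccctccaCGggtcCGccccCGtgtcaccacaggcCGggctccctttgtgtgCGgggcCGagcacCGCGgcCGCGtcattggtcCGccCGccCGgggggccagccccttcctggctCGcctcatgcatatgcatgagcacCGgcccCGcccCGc

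The libraries held 27494041 to 37354623 counts. Mitochondrial genes took 2.24% and 2.25% of counts in the controls, 1.80% in KO replicate 1 and 1.296% in KO replicate 2, so this share moved with the groups and was lowest in the latter. Kat6a itself had 145 and 143 CPM (counts scaled to library size) in the controls, whereas it stood at 242 CPM in replicate 1 and 86.4 CPM in replicate 2 of the libraries labelled KAT6A KO, called KO-labelled library 1 and 2 from here on. Its count therefore does not check the labels, and all directions rest on them. The ES cell label was checked against 10 markers. They summed to 5225 to 5235 CPM in the controls and 6547 to 6996 CPM in the KO libraries (3 of 10 rose, 0 fell). Esrrb, the most abundant, had 977 to 1460 CPM. Primitive endoderm markers summed to 910 to 948 CPM in the controls and 232 to 452 CPM in the KO libraries (5 of 8 fell). Trophoblast markers summed to 259 to 261 and 95.5 to 149 CPM (4 of 7 tested fell). In bulk RNA, fewer cells of a type and less RNA per cell cannot be told apart. Markers of 2-cell-like cells summed to 7.05 to 7.40 CPM in the controls and 22.2 to 24.7 CPM in the KO libraries (7 of 8 rose). Neural markers summed to 70.6 to 78.5 and 93.4 to 104 CPM (2 of 4 tested rose, 1 fell). Formative epiblast markers summed to 246 to 289 and 201 to 283 CPM, and fibroblast markers to 15.5 to 16.5 and 19.9 to 22.6 CPM, with Lum at 0 in every library. Mesoderm markers summed to 5.77 to 6.53 and 6.54 to 8.11 CPM, and blood markers to 6.18 to 7.15 and 5.86 to 6.21 CPM, with Hbb-bt at 0. The part of these markers and of the mitochondrial share in the results below was not tested.

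Per exon length, Tet1 had the highest level of the CXXC genes. Levels between genes are compared as TPM, that is, reads per kilobase of annotated exon scaled to a fixed total. In the controls Tet1 stood at 132 ± 3.42 TPM (SD, n = 2), Fbxl19 at 88.8 ± 5.86, Kmt2b at 72.9 ± 2.53, Cxxc1 at 61.4 ± 0.605, Kdm2a at 50.2 ± 0.914, Cxxc5 at 49.99 ± 3.75, Kmt2a at 26.9 ± 1.05, Kdm2b at 19.3 ± 1.295 and Tet3 at 4.28 ± 0.302 TPM. Of neighbours in this order, only Kdm2a and Cxxc5 overlapped between libraries in the controls. With the longest transcript as the length, Cxxc1 (70.6 TPM) and Kdm2a (64.8 TPM) stood above Kmt2b (63.4 TPM), and Kdm2b was at 31.0 TPM, so the order in the middle depends on the gene model. In the KO libraries Tet1 stood at 177 ± 14.9 TPM, Fbxl19 at 109 ± 17.2, Kmt2b at 92.0 ± 3.74, Cxxc1 at 71.2 ± 6.11, Cxxc5 at 67.9 ± 1.27, Kdm2a at 46.6 ± 0.330, Kmt2a at 27.7 ± 2.17, Kdm2b at 26.0 ± 7.52 and Tet3 at 3.46 ± 0.0169 TPM. Cxxc5 stood above Kdm2a in both KO libraries.

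**Figure D1:**
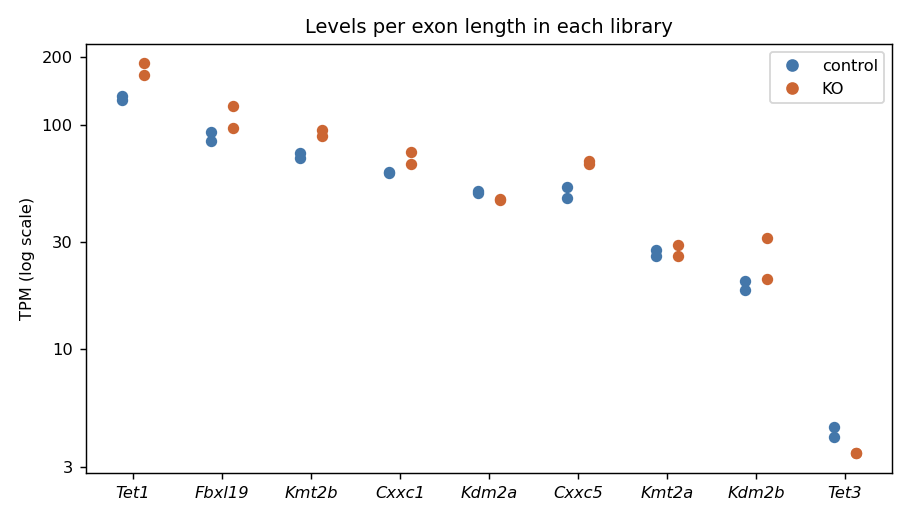
Levels of the 9 tested CXXC genes in TPM (log axis) in each library, controls in blue and KO libraries in orange. Tet1 is highest and Tet3 lowest in every library, and Cxxc5 and Kdm2a overlap in the controls only.

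Across the CXXC genes, Tet1, Cxxc5 and Kmt2b rose modestly in the KO libraries, by 1.26-fold to 1.36-fold, and the other 6 tested genes did not pass. Thus 3 of 9 were called higher (edgeR quasi-likelihood test, Benjamini-Hochberg adjusted p under 0.05 over all genes), where 5.76% of all tested genes were called higher. No CXXC gene was called lower by edgeR, where 8.57% of all genes were. Tet3 alone was lower at an unadjusted p under 0.05, and DESeq2, limma-voom and edgeR's likelihood ratio test also called 0 lower and 3 higher. The median log2 fold change of the 9 genes was 0.30, against 0.01 over all tested genes, and 7 of 9 were above 0. The KO libraries lay above both controls for 6 genes and below both for 2, where 31.5% and 32.8% of all tested genes did so. In the fits just named, all genes were called higher and lower at 6.91% and 9.42% (DESeq2), 6.03% and 9.37% (limma-voom) and 10.3% and 13.5% (likelihood ratio test). All 3 rises rest on both controls: no CXXC gene was called without control replicate 1 (1.55% of all genes higher, 4.09% lower) or without control replicate 2 (1.69% and 3.94%). With an offset that removes the trend of fold change with GC content, 1 of 9 was called higher (all genes: 5.26% higher, 8.71% lower), and without the genes of chromosome 11, a setting added with the data in view, 0 were, with 3 at an unadjusted p under 0.05 (all genes: 3.51% higher, 4.71% lower).

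**Figure D2:**
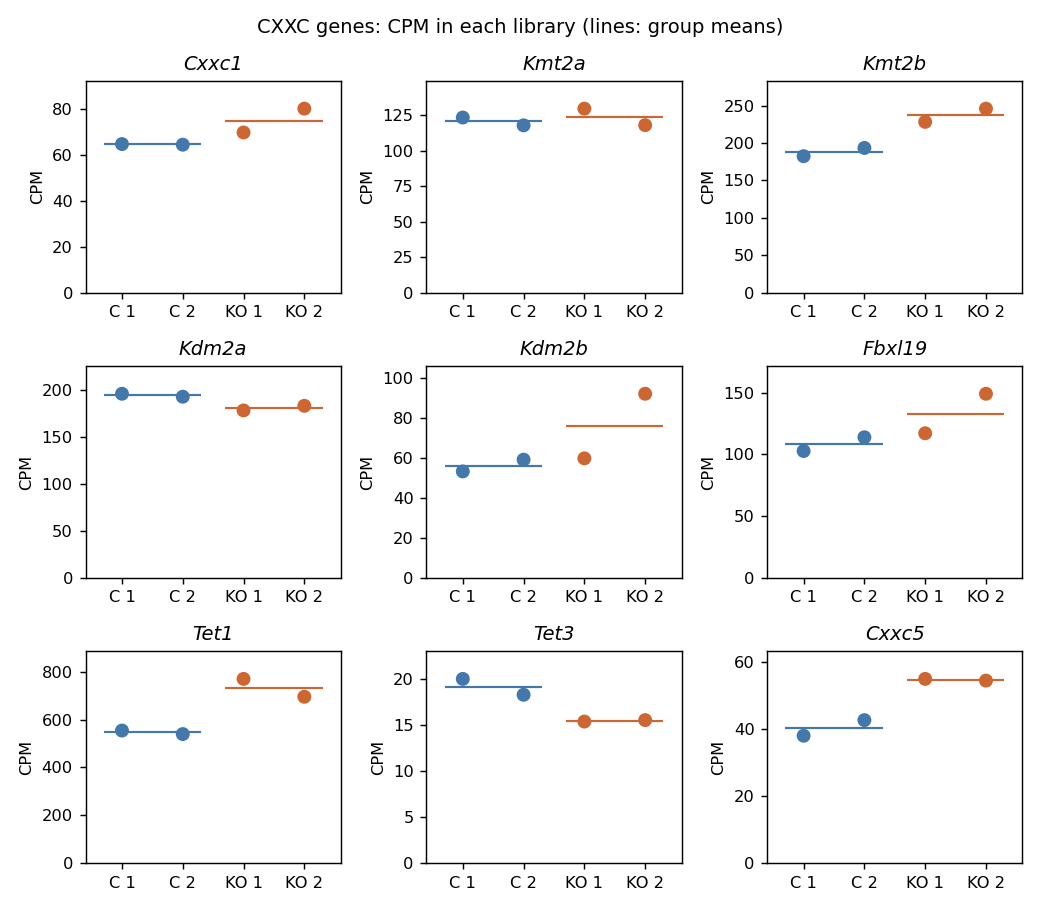
CPM of the 9 tested CXXC genes in each library (C, control; KO, KAT6A KO), with lines at the group means and each axis starting at 0. The KO libraries lie above both controls for 6 genes, below both for Kdm2a and Tet3, and overlap the controls for Kmt2a.

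Among the lysine 4 methyltransferase genes, Kmt2b rose while Kmt2a stayed near the control level and Cxxc1 did not pass. Kmt2b, on chromosome 7 at 30568858 to 30588726 (GRCm38, GENCODE M21), encodes the enzyme that acts at many poised promoters of ES cells. It had 182 and 193 CPM in the controls and 228 and 246 CPM in the KO libraries. Both KO libraries exceeded both controls, and the gap between groups was larger than that within either. Kmt2b was higher by a log2 value of 0.34 ± 0.09 (SE), close to the threshold (edgeR adjusted p = 0.0487). The call ended without control replicate 1 (0.29, edgeR adjusted p = 0.513), without control replicate 2 (0.38, edgeR adjusted p = 0.323), under the offset for GC content (0.12, edgeR adjusted p = 0.248) and without the genes of chromosome 11 (0.30, edgeR adjusted p = 0.0756). Over all alternatives the log2 fold change of Kmt2b ran from 0.12 to 0.39.

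Kmt2a, the gene of the founding MLL enzyme, lies on chromosome 9 at 44803355 to 44881296. It had 123 and 118 CPM in the controls and 130 and 118 CPM in the KO libraries, so the groups overlapped. Its log2 fold change was 0.04 ± 0.09 (SE, edgeR adjusted p = 0.791), and it was -0.03 without KO-labelled library 1. Cxxc1, on chromosome 18, encodes the CpG-reading subunit of the SET1 complex. It had 64.8 and 64.5 CPM in the controls and 69.9 and 80.3 CPM in the KO libraries. Although the groups did not overlap, the KO libraries differed from each other by more than the lower of them differed from the controls. The log2 fold change was 0.21 ± 0.10 (SE, edgeR adjusted p = 0.182). It was 0.31 without KO-labelled library 1 and 0.11 without KO-labelled library 2, each from 1 KO library against the controls.

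Of the 3 F-box genes, none passed the test, and Kdm2b and Fbxl19 were set apart by a single KO library. Kdm2b, on chromosome 5 at 122870665 to 122989823, stood at 53.3 and 59.1 CPM in control cells, at 59.8 CPM in KO-labelled library 1 and at 92.1 CPM in KO-labelled library 2. The former was close to the controls and the latter stood well above them. Its log2 fold change was 0.43 ± 0.20 (SE, edgeR adjusted p = 0.176). It was 0.71 without KO-labelled library 1 and 0.09 without KO-labelled library 2, each from 1 KO library against the controls. Exons of Rnf34 on the opposite strand cover 5.77% of the Kdm2b exons, and whether the counting used strand is not stated by the sources used here. Rnf34 was counted 1669 and 1857 times in the controls, and 1756 and 1535 times in the KO libraries, so reads shared with it cannot be told apart from those of Kdm2b.

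Fbxl19, on chromosome 7 at 127744543 to 127769483, showed the same order. It had 103 and 114 CPM in the controls and 117 and 149 CPM in the KO libraries, with KO-labelled library 2 the higher. The log2 fold change was 0.30 ± 0.13 (SE, edgeR adjusted p = 0.167). With 1 KO library against the controls it was 0.46 without KO-labelled library 1 and 0.11 without KO-labelled library 2. Kdm2a, on chromosome 19 at 4314419 to 4398285, had 196 and 193 CPM in the controls and 178 and 183 CPM in the KO libraries. Both KO libraries lay below both controls by a small margin, with a log2 fold change of -0.11 ± 0.08 (SE, edgeR adjusted p = 0.378). It was -0.09 without KO-labelled library 1 and -0.13 without KO-labelled library 2, each from 1 KO library against the controls.

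Tet1 rose and Tet3 stood lower without passing the test. Tet1 encodes a major TET enzyme of ES cells and lies on chromosome 10 at 62804570 to 62908996. It had 555 and 540 CPM in the controls and 771 and 696 CPM in the KO libraries. Each KO library exceeded the controls by more than the gap within either group. Tet1 was higher by a log2 value of 0.42 ± 0.09 (SE, 1.34-fold, edgeR adjusted p = 0.0298). With the GC-content offset it was 0.58 and was still called (edgeR adjusted p = 0.00694). The call ended without control replicate 1 (0.44, edgeR adjusted p = 0.257), without control replicate 2 (0.40, edgeR adjusted p = 0.301) and narrowly without the genes of chromosome 11 (0.39, edgeR adjusted p = 0.050). Over all alternatives the log2 fold change of Tet1 ran from 0.35 to 0.58.

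Tet3, an enzyme gene better known from the oocyte and zygote, lies on chromosome 6 at 83362373 to 83459084. It was counted 713 and 679 times in the controls, and 469 and 428 times in the KO libraries, which are 20.1, 18.3, 15.4 and 15.6 CPM. The KO libraries agreed closely with each other and lay below both controls. For Tet3 the log2 fold change came to -0.31 ± 0.12 (SE), at an edgeR adjusted p of 0.127 and an unadjusted p of 0.0386. It passed without KO-labelled library 1 (-0.30, edgeR adjusted p = 0.00641) and without KO-labelled library 2 (-0.32, edgeR adjusted p = 0.00406), where the spread comes from the control pair alone. In those same fits 26.2% and 22.9% of all genes were called lower, and 23.9% and 20.9% higher.

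Cxxc5 rose, and Cxxc4 was at the lower limit of detection. Cxxc5, on chromosome 18, encodes a Dishevelled-binding protein that dampens WNT signalling. It had 38.0 and 42.7 CPM in the controls and 55.0 and 54.5 CPM in the KO libraries. The KO libraries were nearly equal and both exceeded the controls. Cxxc5 was higher by a log2 value of 0.44 ± 0.10 (SE, 1.36-fold, edgeR adjusted p = 0.0365). The call ended without control replicate 1 (0.35, edgeR adjusted p = 0.445), without control replicate 2 (0.53, edgeR adjusted p = 0.172), under the offset for GC content (0.32, edgeR adjusted p = 0.0729) and without the genes of chromosome 11 (0.41, edgeR adjusted p = 0.0582). Over all alternatives the log2 fold change of Cxxc5 ran from 0.32 to 0.53. Cxxc4, on chromosome 3, was counted 2 and 0 times in the controls, and 1 time in each KO library. All lay under a floor of 3 counts (0.0803 to 0.109 CPM per library), so no fold change is given and a difference was not detectable at this depth.

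**Figure D3:**
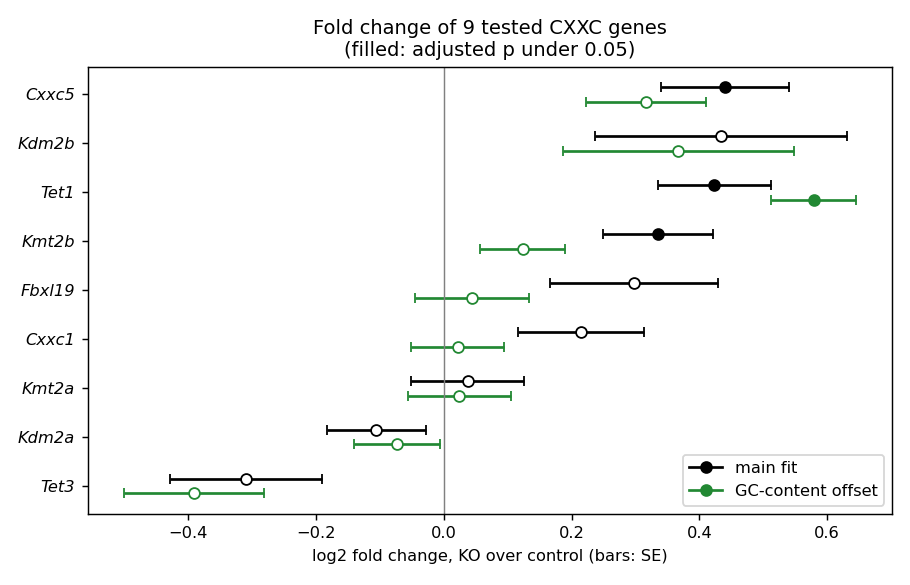
Log2 fold change (KO over control) of the 9 tested CXXC genes with its SE, in the fit as reported (black) and under the GC-content offset (green), filled where the adjusted p is under 0.05. Tet1 is called in both, Cxxc5 and Kmt2b only in the former.

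Fold changes ran in a trend with GC content over all genes, along which Fbxl19 and Cxxc1 lay. Kmt2b lay on the same side but above it, and Tet1, Tet3 and Cxxc5 lay away from it. The median log2 fold change was -0.22 in the quintile of tested genes with the lowest transcript GC content and 0.23 in the quintile with the highest. In single libraries, as log2(CPM + 0.5) against the control mean, the same medians spanned -0.11 to 0.12 in KO-labelled library 1, -0.30 to 0.26 in KO-labelled library 2 and 0.01 to -0.04 between the controls. Fbxl19 (60.3% GC), Kmt2b (59.1%) and Cxxc1 (58.4%) belong to the highest quintile. With the offset their log2 fold changes were 0.04, 0.12 and 0.02. Kmt2b stood at 0.28 in KO-labelled library 1 and 0.39 in KO-labelled library 2, above the quintile medians of 0.12 and 0.26. Tet1 (43.7% GC) belongs to the lowest quintile, whose median was on the other side of 0, and Tet3 (53.4% GC) to the 4th, whose median was 0.11. Cxxc5 (55.3% GC), also in the 4th, stood at 0.44 in KO-labelled library 1 and 0.43 in KO-labelled library 2. The quintile medians there were 0.05 and 0.13. With the offset the log2 fold change of Cxxc5 was 0.32 (edgeR adjusted p = 0.0729). That of Tet3 was -0.39 (edgeR adjusted p = 0.0639), and that of Kdm2b (52.6% GC) was 0.37 (edgeR adjusted p = 0.214). The median of the 9 genes was 0.04 with the offset, against 0.30 without it.

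**Figure D4:**
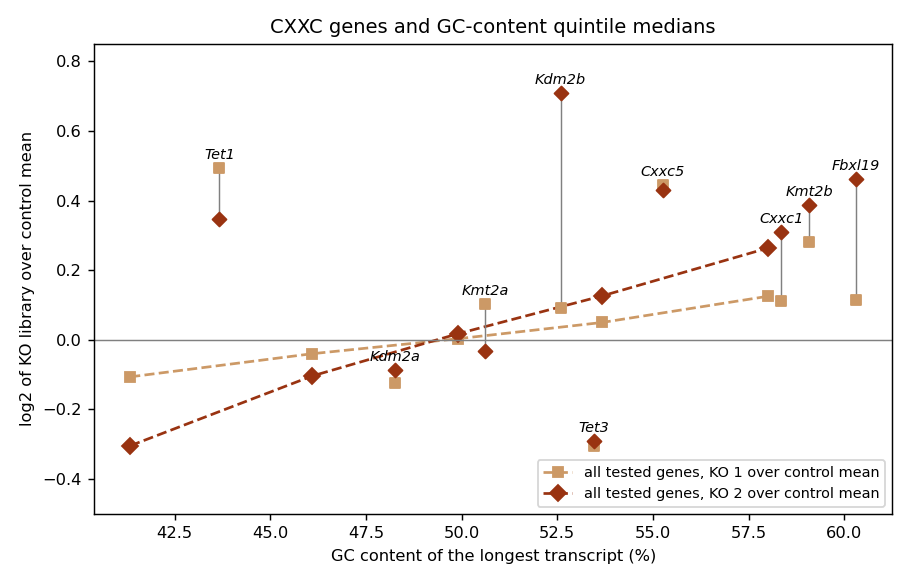
Log2 of each KO library over the control mean for the 9 tested CXXC genes against the GC content of the longest transcript (squares, KO replicate 1; diamonds, KO replicate 2), with dashed lines for the medians of all tested genes in GC quintiles. Tet1 and Cxxc5 lie above both lines, and Tet3 and, by a smaller margin, Kdm2a lie below both. Kdm2b and Fbxl19 differ between the KO libraries.

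Ratios between related genes, taken within a library and per exon length, do not depend on library scaling, but they can move with GC content where the genes differ in it. Tet1 exceeded Tet3 by 29.9 and 31.8 times in the controls and by 54.1 and 48.3 times in the KO libraries. The log2 ratio was 0.73 higher in the KO libraries, larger than the SD within groups (0.06 in the controls, 0.11 in the KO). Kmt2a stood at 0.389 and 0.351 times the level of Kmt2b in the controls and at 0.327 and 0.276 times in the KO libraries, a log2 difference of -0.30 with SDs of 0.11 and 0.17. Kdm2a exceeded Kdm2b by 2.77 and 2.45 times in the controls and by 2.24 and 1.496 times in the KO libraries, a log2 difference of -0.51 with SDs of 0.12 and 0.41. The groups did not overlap in any of these 3 ratios. The offset for GC content was a setting added with the data in view for these ratios. Under it the log2 difference was -0.099 for Kmt2a over Kmt2b, -0.44 for Kdm2a over Kdm2b and 0.97 for Tet1 over Tet3. The SDs above come from ratios without the offset, so they do not measure the spread of these values. The two-sided exact permutation p was 0.333 for each, which is the smallest that 2 against 2 libraries allow, and 0.333 after adjustment over the 3. No ratio was formed for Cxxc4 and Cxxc5, since Cxxc4 was under the floor.

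The proteins that work with CXXC readers were described in 11 lists of 54 genes, of which 53 were tested. Of these 4 rose (7.55%) and 7 fell (13.2%), against 5.76% and 8.57% of all genes, with a median log2 fold change of 0.12 against 0.01. Chromosome 11 holds Bod1, Skp1a, Med13 and Dvl2. Its 1322 tested genes had a median of -0.46, with 536 called lower and 9 higher. Bod1, Skp1a and Med13 are among the 7 genes that fell, and the part of the chromosome in their falls was not tested. Pagr1a, an MLL3/4 subunit gene, was at 0 in every library.

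In the SET1 and MLL lists, 3 genes rose and 1 fell. Wdr5, the scaffold shared by all these complexes, had 422 and 445 CPM in the controls and 612 and 679 CPM in the KO libraries (log2 fold change 0.58 ± 0.09 SE, edgeR adjusted p = 0.0153). Its groups lay far apart, and it was the only 1 of the 4 core subunits to pass. Hcfc1, a host cell factor of the SET1 complex on the X chromosome, rose by a log2 fold change of 0.36 from 541 and 566 CPM to 705 and 714 CPM, and Bod1 on chromosome 11 fell (-0.39), so 1 of 6 SET1 genes rose and 1 fell. Kmt2d, the main MLL4 enzyme gene, rose by 0.42 from 96.1 and 98.3 CPM to 126 and 135 CPM, as 1 of 5 tested in its list. The list of KMT2A and KMT2B partners holds 3 genes and leaves out Wdr5 and Hcfc1, which were counted in the lists above. None of the 3 was called (edgeR, 0 at an unadjusted p under 0.05, and 0 by DESeq2 and limma-voom). Psip1, the most abundant, had a log2 fold change of 0.02. Under the offset for GC content Hcfc1 and Kmt2d were not called (edgeR adjusted p = 0.0635 and 0.0688), while Wdr5 was (0.54). Leaving out control replicate 1 ended the calls of Wdr5, Hcfc1, Kmt2d and Bod1 (edgeR adjusted p = 0.126, 0.467, 0.293 and 0.281), as did leaving out control replicate 2 (edgeR adjusted p = 0.0555, 0.321, 0.217 and 0.332). Hcfc1 was also not called without the genes of chromosome 11 (edgeR adjusted p = 0.0562), nor Bod1 with RLE, upper quartile or no composition scaling (edgeR adjusted p = 0.0529, 0.0582 and 0.0515) and a minimum of 1 CPM (edgeR adjusted p = 0.0508). No gene of the H3K4 demethylase list was called (edgeR, 2 of 5 higher at an unadjusted p under 0.05, 1 called higher by DESeq2 and by edgeR's likelihood ratio test and 0 by limma-voom). Kdm5b, its most abundant member, had a log2 fold change of 0.12.

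Of the 9 genes of PRC1.1, the complex that KDM2B recruits, 3 fell, where 8.57% of all tested genes did. None was called higher by edgeR, DESeq2 or limma-voom (0 at an unadjusted p under 0.05), where edgeR called 5.76% of all tested genes higher. The other 6 were not called. Among them were Pcgf1 (log2 fold change 0.17), Bcor (-0.12) and Bcorl1 (-0.19), named after their values were seen. The list median was -0.13. Skp1a, the adaptor that binds F-box proteins, on chromosome 11, went from 362 and 371 CPM to 267 and 247 CPM (log2 fold change -0.51 ± 0.08 SE, edgeR adjusted p = 0.0169). Yaf2, which bridges to the RING1 enzymes, had 17.3 and 16.8 CPM in the controls and 10.6 and 8.58 CPM in the KO libraries (-0.83). Rnf2, which encodes the ubiquitin ligase RING1B and was named after its values were seen, had 225 and 239 CPM in the controls and 179 and 148 CPM in the KO libraries (-0.50). Both KO libraries lay above both controls for 3 of the 9 genes and below both for 5, where 31.5% and 32.8% of all tested genes did so. The 5 include Skp1a, Yaf2 and Rnf2, which were the 3 called genes, and Kdm2b itself was not called. Without control replicate 1 or 2 none of the 3 was called (edgeR adjusted p from 0.0613 to 0.175), and the call of Rnf2 ended under the offset for GC content (-0.21, edgeR adjusted p = 0.0935).

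Of the 6 genes of the CDK8 module, linked to FBXL19, 2 fell, where 8.57% of all tested genes did. Without the genes of chromosome 11, 0 of the 5 left in the list were called lower, where 4.71% of all genes were. Med13, on chromosome 11, went from 183 and 182 CPM to 124 and 87.8 CPM (log2 fold change -0.79). Ccnc, the cyclin of the module, had 67.7 and 70.9 CPM in the controls and 56.1 and 48.0 CPM in the KO libraries (-0.41, edgeR adjusted p = 0.0498). With the GC-content offset Ccnc was at 0.02 (edgeR adjusted p = 0.907), while Med13 was still called (-0.55). Ccnc was not called without control replicate 1 or 2 either (edgeR adjusted p = 0.231 and 0.355), nor with RLE, upper quartile or no composition scaling, a minimum of 1 CPM or without the genes of chromosome 11 (edgeR adjusted p = 0.0515 to 0.0634).

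Other readers of CpG islands moved in both directions. Kat6b, the paralog of Kat6a, rose by a log2 fold change of 0.56, from 350 and 342 CPM to 538 and 483 CPM, and Phf19, a Polycomb-like subunit, fell by 0.85 on the log2 scale, from 39.4 and 38.1 CPM to 20.0 and 22.9 CPM. These were 1 rise and 1 fall among 7 genes that bind CpG islands through other domains. Phf19 was called without each control and Kat6b was not (edgeR adjusted p = 0.0853 and 0.103). The 2 further CXXC genes, Dnmt1, the maintenance DNA methyltransferase, and Mbd1, were not called by edgeR (1 at an unadjusted p under 0.05), DESeq2 or limma-voom. Dnmt1 had 343 and 347 CPM in the controls and 386 and 430 CPM in the KO libraries (log2 fold change 0.24). Among TET relatives and partners, none of 3 was called by edgeR's quasi-likelihood test (1 higher at an unadjusted p under 0.05), DESeq2 or limma-voom, and 1 was called higher by edgeR's likelihood ratio test. That gene was Tdg, the glycosylase that excises oxidised 5-methylcytosine, named after its values were seen. It was counted only 30 and 16 times in the controls, and 39 and 59 times in the KO libraries. Its groups did not overlap in CPM, and its log2 fold change of 1.42 ± 0.42 (SE, edgeR adjusted p = 0.0688) did not pass. Tdg was called by the likelihood ratio test (adjusted p = 0.00887), with all genes kept whatever their counts (edgeR adjusted p = 0.0198) and with the replicate block (edgeR adjusted p = 0.0212). With a single library left out Tdg was called except without control replicate 2, and such fits hold 1 library in a group. A processed pseudogene of Tdg is annotated, so its counts are uncertain where reads fit both. Ogt, the sugar transferase bound by TET proteins, had 307 and 295 CPM in the controls but 384 and 255 CPM in the KO libraries (0.08). Its log2 fold change was -0.24 without KO-labelled library 1 and 0.35 without KO-labelled library 2. Tet2, the TET gene whose product lacks a CXXC domain, named after its values were seen, had 232 and 221 CPM against 260 and 223 CPM, with overlapping groups (0.09). Of the 3 Dishevelled genes none was called by edgeR (1 lower at an unadjusted p under 0.05), DESeq2 or limma-voom. Dvl2, on chromosome 11, had a log2 fold change of -0.31, and was called under the offset for GC content (-0.48, edgeR adjusted p = 0.0212).

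**Figure D5:**
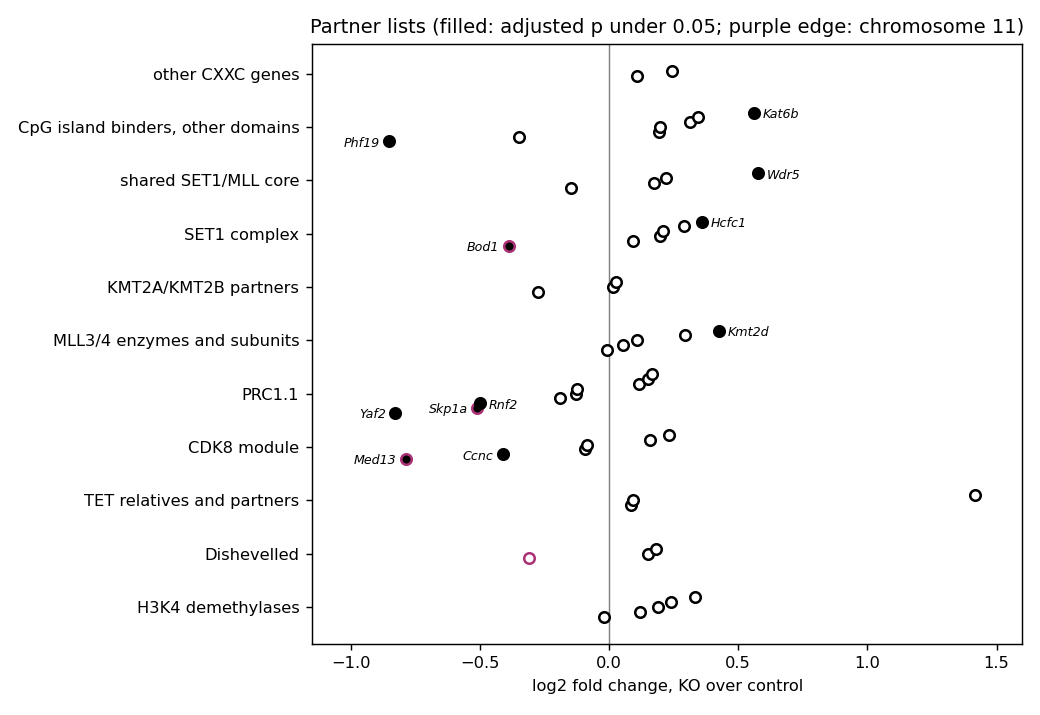
Log2 fold change (KO over control) of each tested gene in the 11 partner lists, filled where the adjusted p is under 0.05 and edged in purple for chromosome 11. The 3 called PRC1.1 genes and the 2 called CDK8 module genes lie below 0, and Wdr5, Hcfc1, Kmt2d and Kat6b above.

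The authors' deposited table, from their own comparison of the same libraries, gave adjusted p-values under 0.05 to the same 3 CXXC genes. Its log2 fold changes were 0.41 for Tet1 (adjusted p 0.00493), 0.42 for Cxxc5 (adjusted p 0.0186) and 0.32 for Kmt2b (adjusted p 0.042). Of all genes given an adjusted p in the authors' deposited table, 6.94% were called higher and 10.1% lower. The authors' deposited table gave Kdm2b 0.40 (adjusted p 0.0933), Fbxl19 0.28 (adjusted p 0.171), Cxxc1 0.21 (adjusted p 0.31) and Tet3 -0.28 (adjusted p 0.253), and no adjusted p to Cxxc4.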

How the data were processed

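Libraries were strand-specific and made from polyadenylated RNA (TruSeq Stranded mRNA), per the labels' protocols. Each library has a deposited table of read counts by gene symbol, in whole numbers. Tools named in the submitters' processing notes are featureCounts and DESeq2. Aligner, genome build and annotation: not given in the sources used here. The authors also deposited normalized counts, a signal equal to the counts divided by 1 factor per library (0.848 to 1.15), and a comparison table without header. From their order and values, its columns hold the authors' mean signal, log2 fold change, standard error, Wald statistic (a score), p-value and adjusted p-value.

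Counts of all genes entered edgeR 4.0.16 (R 4.3.3): filterByExpr by group, TMM scaling, robust quasi-likelihood test on group, Benjamini-Hochberg adjustment over 16112 genes, threshold 0.05. Standard errors are the fold change over the root of F. Alternatives used RLE, upper quartile or no scaling, no filter or at least 1 CPM in 2 libraries, DESeq2 1.42.0, limma-voom (3.58.1), the likelihood ratio test, a replicate block, a GC-content offset (lowess span 0.3), and each library left out. A library left alone in its group was taken to vary as those of the other group do. The procedure was tested on simulated data. Exon lengths, GC content and positions came from GENCODE M21, where 97.3% of symbols and GC content for 98.6% of tested genes were found. The genes and lists were chosen with earlier results of these data known. All CXXC genes are named. Each partner list gave up to 2 called genes per direction by smallest adjusted p, or its most abundant gene where none was called. Floors cover counting error only, whereas the SDs and SEs given include the spread between libraries.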

Additional observations from a re-analysis of the deposited data

How the results depend on the processing

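The log2 fold changes of the 9 tested CXXC genes kept their direction under all 16 alternatives except that of Kmt2a, which ran from -0.032 (KO-labelled library 1 left out) to 0.10 with each library left out. Of the 144 values, 123 kept their direction and their side of the threshold, 13 lost a call, 7 gained one and 1, that of Kmt2a, turned its direction without a call. The count of CXXC genes called higher was 3 as reported, 1 with the GC-content offset, 1 with that offset and the replicate block, and 0 without the genes of chromosome 11. It ran from 0 to 6 when each library was left out, where 1.55% to 23.9% of all genes were called higher. The count called lower ran from 0 to 2, where 3.94% to 26.2% of all genes were. Leaving out a KO library takes the spread from the controls alone, and leaving out a control takes it from the KO libraries alone. Among the partner lists 4 genes were called higher and 7 lower, with 7 higher under the replicate block, 3 lower without the genes of chromosome 11, and ranges of 0 to 23 and 2 to 14 when each library was left out. The labels do not tie the replicate numbers to shared cultures, and across genes the differences between replicates 1 and 2 correlated by 0.0945 between the groups. With the replicate block Kdm2b was also called (log2 fold change 0.40, edgeR adjusted p = 0.0276), and the count of genes called over the whole table was 1613 higher and 2147 lower, against 928 and 1381.

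Among partners, the direction of Ccnc turned under the GC-content offset (0.018, and 0.017 with that offset and the replicate block). With each library left out, the log2 fold change of Kat6a ran from -0.74 to 0.75, that of Ogt from -0.24 to 0.35 and that of Psip1 from -0.032 to 0.059, the lowest in each case without KO-labelled library 1. Psip1 was at -0.0052 with no low-count filter and at -0.015 without the genes of chromosome 11. With the longest transcript as the length, control levels in TPM were 70.6 for Cxxc1, 64.8 for Kdm2a, 31.0 for Kdm2b, 20.9 for Kmt2a, 63.4 for Kmt2b, 109 for Tet1 and 5.03 for Tet3. The cause of these changes was not tested. Differences in the ratios of related genes ran, with each library left out, from -0.42 to -0.18 for Kmt2a over Kmt2b, -0.80 to -0.22 for Kdm2a over Kdm2b and 0.65 to 0.81 for Tet1 over Tet3. With the GC-content offset, added after seeing the data, they were -0.099 for Kmt2a over Kmt2b and 0.97 for Tet1 over Tet3.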
